A study of Mus musculus with 35 samples.

Results

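A set of 66 genes, out of 44853 in the RNA-seq table of Gata6 induction, was high for a limited time after GATA6 was switched on in mouse embryonic stem (ES) cells. The genes were chosen on their group mean level in TPM, a share of the transcripts of a library that is corrected for transcript length. A gene was taken when its highest mean over 7 time points was at 48, 72 or 96 h, was at least 10 TPM and, with 1 TPM added to both values, was at least 3 times both the mean at 0 h and the mean at 168 h. The time course therefore chose these genes, and its values are given below as a description with no test.

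The cells were KH2 ES cells (C57BL/6 x 129/Sv) carrying a doxycycline (Dox)-inducible Gata6 cassette, grown in serum and LIF on mitotically inactive mouse embryonic fibroblast feeders that were depleted by adsorption before lysis. Dox-free cells (0 h) and cells exposed for 16, 24, 48, 72, 96 or 168 h gave 3 libraries at each time. Embryo-derived X10 XEN cells (CD1, wild type, no Dox, no LIF) gave 2 libraries. In a separate experiment the same kind of inducible ES cells received a pool of control siRNAs (siCTL) or of siRNAs against Oct4 (siOct4). They were collected at 48 h of Dox, with 6 libraries each. All KH2 groups, controls included, carried the Gata6 cassette, and the siRNA experiment used 1 clone. The study describes its replicates as independent.

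GATA6 is the transcription factor that drives cells of the inner cell mass towards primitive endoderm, the lineage that forms the visceral and parietal endoderm of the yolk sac and that XEN cells represent in culture. OCT4, encoded by Pou5f1, is best known for holding cells in the pluripotent state, and is also present while primitive endoderm forms. Genes that are high for only part of such a conversion are commonly used as markers of its intermediate states, as opposed to genes of the starting or the final identity.

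The mean of Gata6 itself was 0.264 ± 0.0978 TPM (SD, n = 3) before Dox, 164 ± 20.3 TPM after 48 h and 344 ± 26.2 TPM after 168 h. For Pou5f1 it was 1654 ± 155 TPM before Dox, 1169 ± 41.1 TPM after 48 h, 500.1 ± 89.3 TPM after 96 h and 63.4 ± 42.1 TPM after 168 h. In the XEN libraries Gata6 averaged 346 TPM and Pou5f1 0.202 TPM. The window in which the 66 genes were highest thus ran while both mRNAs were present.

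The highest mean was at 48 h in 23 genes, at 72 h in 31 and at 96 h in 12. Peak means ran from 10.04 TPM for Galnt3 to 516 TPM for Folr1, and the median of the smaller of the 2 ratios was 3.93. The genes with a 48 h peak were already well above their start early, standing at a median of 52.3% of their peak mean at 24 h, whereas the median was 21.2% for the 72 h peak and 19% for the 96 h peak. At 24 h, 20 genes were at least 3 times their 0 h mean, of which 13 had the 48 h peak, 5 the 72 h peak and 2 the 96 h peak. The times of the highest mean were not sharp: the 3 peak libraries lay above every library of the next highest time in only 13 genes. In bulk libraries fewer cells that express a gene and less of its RNA per cell cannot be told apart.

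**Figure D1:**
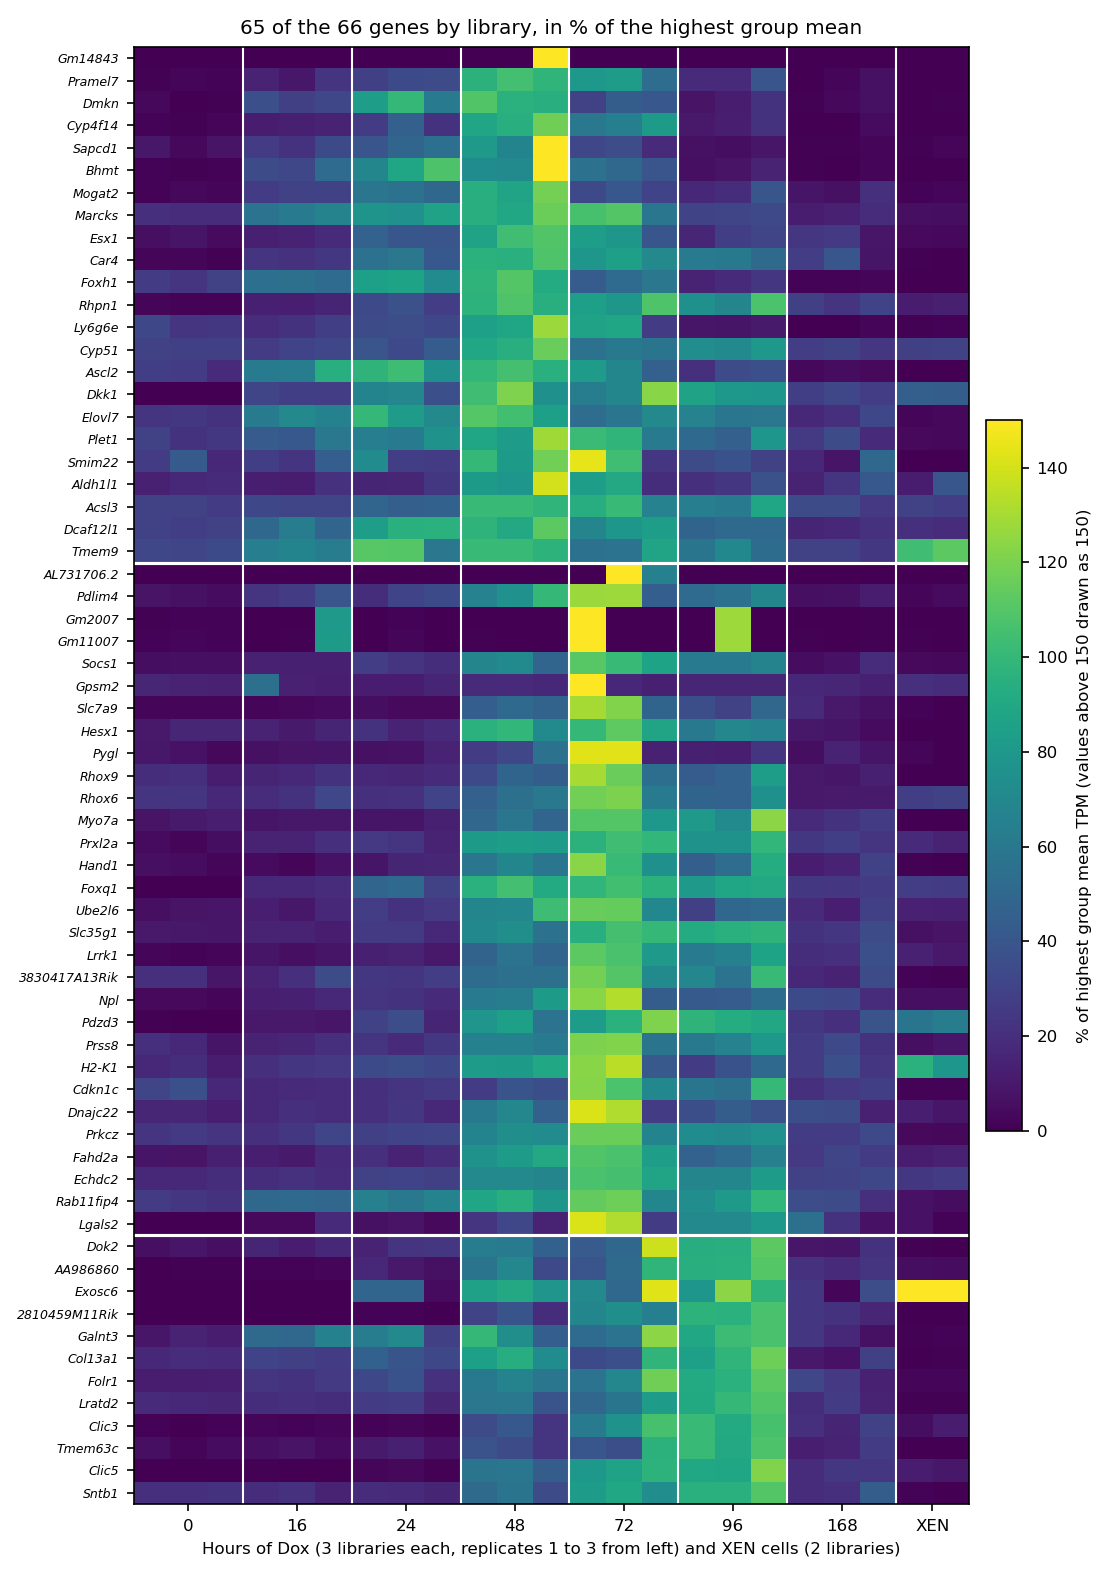
Level of 65 of the 66 genes in each of the 23 libraries, in % of the gene's highest group mean, with genes grouped by the time of that mean (48 h at the top, then 72 h, then 96 h). Most rows are bright between 48 and 96 h and dark at 0 h, 168 h and in XEN cells, a few rows rest on a single bright library, and replicate 3 at 72 h is darker than the other two in many genes of the middle block.

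How far the pattern held in single libraries was read from the replicates. All peak libraries lay above all 0 h and all 168 h libraries in 58 of the 66 genes. The rule set the means of these same libraries at least 3 times apart, so this count follows largely from the choice. The rule was applied to 2 of the 3 replicate numbers, and its 2 ratios were read in the number left out. They were read at the peak time already chosen, with no minimum level. Without replicate 1, 48 of 69 genes chosen (69.6%) met both. The counts were 48 of 73 (65.8%) without replicate 2 and 29 of 81 (35.8%) without replicate 3. Of genes not chosen but likewise highest at 48 to 96 h and at least 10 TPM, between 0.310% and 0.976% met both. Those genes had failed at least 1 of the ratios in the other replicates, so their low share follows largely from the choice. Leaving out the highest peak library removed 20 genes and left 46.

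Replicate 3 at 72 h stood apart from the other two. On the log2(TPM + 1) scale, it differed from replicate 1 by a mean of 0.42 over all genes of at least 1 TPM and by 1.03 over the 66 genes, against 0.17 and 0.43 between replicates 1 and 2. It held the lowest value in 24 of the 31 genes with a 72 h peak. Of 24 fibroblast markers, 23 were higher in it than in both other 72 h libraries, and their summed level was 631 TPM against 155 and 179 TPM. Replicate 3 was also highest for 23 of the markers at 0 h (sum 552 TPM, against 333 and 246 TPM), 21 at 16 h and 20 at 168 h, but for 5 at 96 h. No marker was at 0 in every library of a time. Their part in the lower values was not tested. Other lists differed between the 72 h libraries as well, such as hypoxia genes, with sums of 5800, 5863 and 3652 TPM in replicates 1 to 3. Which of the 72 h libraries departed from the neighbouring times was not tested. Without replicate 3 at 72 h the rule took 78 genes, which included all 66.

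Foxq1 and Dkk1 were nearly absent at 0 h and well above it by 16 h. Foxq1, a forkhead factor, had 0.162, 0.112 and 0.0609 TPM in the 0 h libraries, 108, 114 and 105 TPM at 72 h, and 26.3, 25.9 and 29.2 TPM at 168 h. Its mean was already 19 ± 1.51 TPM at 16 h (SD, n = 3), and XEN cells, at 29.5 and 28.7 TPM, overlapped the 168 h libraries. Dkk1, a secreted antagonist of WNT signalling made by the anterior visceral endoderm, had 0.0609, 0.132 and 0.0304 TPM at 0 h, 76.4, 89.1 and 55.2 TPM at 48 h, and 20.3, 23.5 and 19.9 TPM at 168 h. The 72 h libraries of Dkk1 (46.6, 50.8 and 90.9 TPM) overlapped those at 48 h, and the XEN libraries (33.3 and 32.3 TPM) lay above those at 168 h. With 1 TPM added, the 168 h mean was 25.3 times the 0 h mean for Foxq1 and 20.7 times for Dkk1.

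Hesx1, a homeobox repressor of the anterior visceral endoderm and forebrain, was later and more transient. It had 2.51, 3.97 and 4.02 TPM at 0 h, 24.7, 27.8 and 21.6 TPM at 72 h, and 2.34, 2.12 and 1.06 TPM at 168 h, and was at 0 in both XEN libraries. Its 24 h libraries (5.45, 3.56 and 4.48 TPM) overlapped those at 0 h, and its 48 h libraries (23.6, 24.6 and 17.6 TPM) overlapped those at 72 h. Foxh1, the DNA-binding partner of SMAD2 and SMAD3 in Nodal signalling, ended far below its start. It had 18.7, 16.1 and 21 TPM at 0 h, 69.4, 78.3 and 65.6 TPM at 48 h, and 0.875, 0.954 and 1.61 TPM at 168 h, so that every 168 h library lay below every 0 h library. Of the 66 genes, 4 had a 168 h mean of no more than 0.5 times that of 0 h with 1 TPM added, namely Sapcd1, Foxh1, Ly6g6e and Ascl2.

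A group of 5 members belongs to a list of 26 trophoblast genes, of which 14 reached 10 TPM in a time group. The list was chosen with earlier results of these data known, so that its count is a description. Rhox6 and Rhox9, X-linked homeobox genes of the placenta and germ line, had nearly the same course. Rhox6 had 17.2, 17.3 and 13.1 TPM at 0 h, 88.5, 90.3 and 46.0 TPM at 72 h, and 7.83, 7.97 and 8.17 TPM at 168 h. Rhox9 had 16.4, 17.8 and 9.89 TPM at 0 h, 110.4, 97.9 and 45.9 TPM at 72 h, and 8.86, 7.49 and 11.4 TPM at 168 h. They parted in XEN cells, where Rhox6 had 20.7 and 22.1 TPM and Rhox9 0 and 0.0910 TPM. Because 16.5% of the 50-base stretches of the Rhox6 transcripts also occur in Rhox9, reads of these 2 genes may be split between them, and their separate levels are less certain than their shared course.

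Ascl2, a basic helix-loop-helix factor of trophoblast progenitors, was earliest in this group, with 3.62, 3.35 and 2.35 TPM at 0 h, 12.7, 13.6 and 12.2 TPM at 48 h and 0.407, 0.619 and 0.477 TPM at 168 h. Its 24 h libraries (12.6, 13.3 and 9.70 TPM) overlapped those at 48 h, so that its high phase started by 24 h. Esx1, an X-linked placental homeobox gene, had 0.873, 1.19 and 0.619 TPM at 0 h, 11.8, 14.2 and 14.8 TPM at 48 h, and 3.21, 3.42 and 1.27 TPM at 168 h. Hand1, a factor of trophoblast giant cells and heart, had 0.670, 0.528 and 0.284 TPM at 0 h, 13.7, 11.2 and 8.31 TPM at 72 h, and 1.31, 1.62 and 3.31 TPM at 168 h, and it no longer met the rule when its highest library was left out. Other trophoblast markers were mixed. The highest group mean of Cdx2 was 2.13 TPM, at 72 h, that of Elf5 0.261 TPM, at 0 h, and that of Eomes, which primitive endoderm and epiblast derivatives also express, 8.87 TPM, at 96 h. Plac1 and Krt7 had their highest means at 72 h, 15.2 and 6.96 TPM, whereas Tfap2c, which ES cells express, was highest at 0 h with a mean of 38.3 TPM.

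Cdkn1c, an imprinted inhibitor of cyclin-dependent kinases, was late. It had 16.4, 19 and 8.60 TPM at 0 h, 64.1, 56.0 and 36.4 TPM at 72 h, and 10.8, 13.1 and 14.5 TPM at 168 h, and XEN cells held 0.698 and 0.769 TPM. Its 48 h libraries (14, 20.4 and 18.7 TPM) still overlapped those at 0 h, and its 96 h libraries (30.4, 28.8 and 52.4 TPM) overlapped those at 72 h. Ascl2 and Cdkn1c lie 489 kb apart in the imprinted region of distal chromosome 7 (mm10, chr7:142966829-142969264 and chr7:143458339-143461050), and were the members on a list of 26 imprinted genes. Their courses nevertheless differed, with the highest mean of Ascl2 at 48 h and that of Cdkn1c at 72 h.

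**Figure D2:**
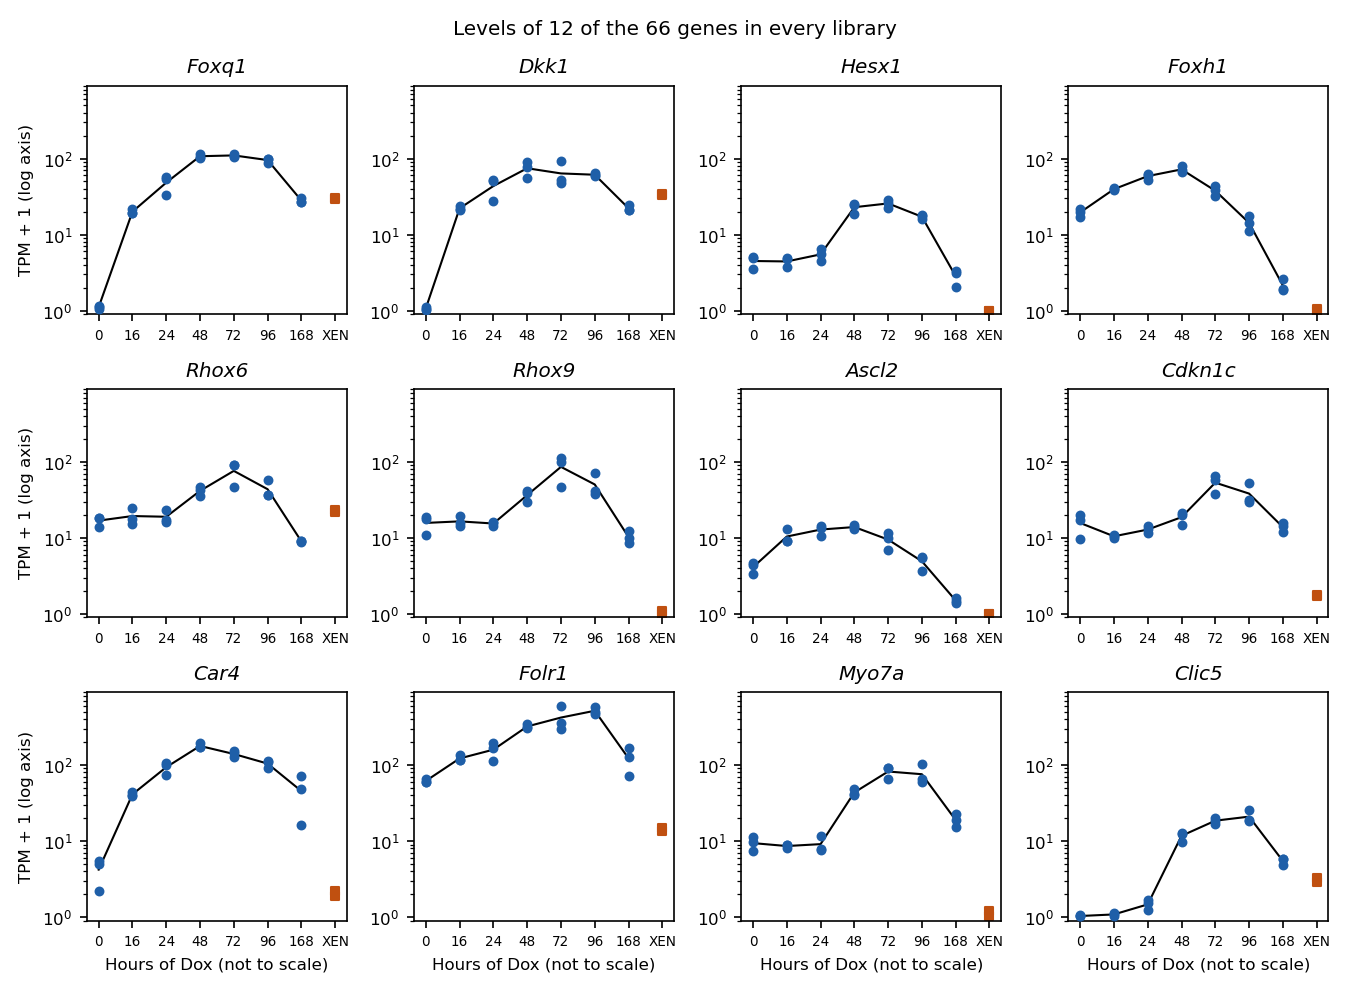
TPM + 1 on a log axis in every library for 12 of the genes, with blue points for the 3 libraries at each time, a black line through the group means and orange squares for the 2 XEN libraries. Foxq1, Dkk1 and Car4 are already high at 16 h, Hesx1, Myo7a and Clic5 only from 48 h, Rhox6, Rhox9 and Cdkn1c are highest at 72 h, and most of the 12 are near the floor in XEN cells.

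Folr1 and Npl were among the most abundant members. Folr1, a folate receptor, had 58.7, 59.7 and 63.9 TPM at 0 h, 474, 495 and 578 TPM at 96 h, and 166, 128 and 71.4 TPM at 168 h, with 12.7 and 13.7 TPM in XEN cells. Npl, an enzyme that breaks down sialic acid, had 12.5, 12.1 and 8.20 TPM at 0 h, 387, 416 and 139.8 TPM at 72 h, and 107, 103 and 59.7 TPM at 168 h. Replicate 3 at 72 h was lower than all 3 at 48 h (193, 197 and 256 TPM), and Npl left the set when its highest library was left out.

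Car4, a membrane-anchored carbonic anhydrase, had 4.49, 3.94 and 1.20 TPM at 0 h, 170.1, 169 and 192 TPM at 48 h, and 47.8, 70.6 and 15.1 TPM at 168 h. It was the most abundant gene with a 48 h peak, and its 168 h libraries were widely spread. Clic5, a chloride intracellular channel protein linked to the actin cytoskeleton, was below 1 TPM up to 24 h and had 17.9, 17.6 and 24.3 TPM at 96 h, then 3.79, 4.86 and 4.78 TPM at 168 h. Myo7a, an unconventional myosin, had 6.38, 8.60 and 10.2 TPM at 0 h, 89.3, 89.1 and 65.1 TPM at 72 h, and 14.4, 17.7 and 21.5 TPM at 168 h. Dok2, an adaptor downstream of receptor tyrosine kinases, had 9.65, 14.6 and 9.49 TPM at 0 h, 146, 148 and 176 TPM at 96 h, and 14.3, 13.4 and 34.4 TPM at 168 h. Replicate 3 at 72 h, at 217 TPM, was above all of these, against 67.6 and 78.2 TPM in the other two.

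Several genes with large ratios had means below 1 TPM at both 0 h and 168 h. Pramel7, a PRAME family gene of naive pluripotent cells, had 0.213, 0.355 and 0.254 TPM at 0 h, 19.3, 21 and 19.7 TPM at 48 h, and 0.0712, 0.548 and 1.38 TPM at 168 h. Dmkn, which encodes dermokine, had a mean of 18.3 TPM at 48 h and means below 1 TPM at 0 h and 168 h. Bhmt, which transfers a methyl group from betaine to homocysteine, and Cyp4f14, a cytochrome P450, had means of 10.3 and 11.8 TPM at 48 h and means below 1 TPM at both ends. For Bhmt, 25.3% of the 50-base stretches of the transcripts occur in other genes, and its 48 h value rested in part on 1 library (7.50, 7.27 and 16.0 TPM).

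Some members are less secure. AL731706.2 was listed at 0 in every library but replicates 2 and 3 at 72 h (104 and 29.2 TPM). Gm14843 was listed above 0 in 1 library of 23, replicate 3 at 48 h (38.7 TPM). Gm2007 and Gm11007, neighbours on chromosome 2, had the same value of 31.1 TPM in replicate 1 at 72 h and under 0.1 TPM in the other two, and all 50-base stretches of each occur in other genes. Gpsm2 had 179, 11.7 and 8.87 TPM at 72 h and between 8.71 and 11.2 TPM in its 0 h and 168 h libraries. Exosc6, a subunit of the RNA exosome that all cells use, was listed at 0 in all 0 h and 16 h libraries and at 52.2 and 57.3 TPM in XEN cells, and all 50-base stretches of its transcript also occur in transcripts of Aars, so its values may be failed estimates. At the edge of the rule, the smaller ratio was 3.01 for Tmem9, 3.02 for Dcaf12l1 and 3.06 for Sntb1, and 2.99 for H2-Q7, 2.99 for Gm14295 and 2.94 for Hpn, which were not taken.

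By 168 h the 66 genes stood at a median of 20.7% of their peak mean. Measured against 0 h with 1 TPM added, 14 of them were still at least 3 times higher, 5 were between 2 and 3 times, 43 were within 2 times and 4 were at 0.5 times or less. The 14 included Foxq1, Dkk1, Car4, Clic5, Npl, Prxl2a and AA986860. At 168 h, the last time sampled, the set thus held both genes near their ES cell level and genes at an intermediate one.

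XEN cells, which the rule did not use, had a mean under 1 TPM in 35 of the 66 genes (53%), against 19.7% of the 15057 genes with at least 1 TPM in a group and 4.43% of the 9441 genes with at least 10 TPM in a time group. Of 1293 genes that were highest at 168 h, at the same minimum level and ratio to 0 h, 6 (0.464%) were under 1 TPM in XEN cells. The rule asked for a low 168 h mean in the members and in none of these comparison genes. These shares therefore cannot show how far low XEN levels go beyond that choice. Both XEN libraries lay below all 168 h libraries in 44 of the 66 genes and above them in 7, where the shares over the 15057 genes were 44.6% and 24.9%. Members under 1 TPM included Hesx1, Foxh1, Ascl2, Hand1, Esx1, Rhox9, Cdkn1c and Myo7a. The 7 genes above 168 h were Gpsm2, Rhox6, Exosc6, Pdzd3, H2-K1, Dkk1 and Tmem9, and in Exosc6 and Tmem9 the XEN mean also exceeded the peak. XEN cells differed from the KH2 cells in strain and derivation as well as in medium, and with 2 libraries no test was made.

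Of 30 gene lists, 12 of the 66 genes were in at least 1. The share over all genes was not taken, so this count is a description. Besides the trophoblast and imprinted genes, these were Dkk1 and Hesx1 among 19 anterior visceral endoderm genes, Car4 and Clic5 among 41 visceral endoderm genes, Foxq1 among 20 primitive endoderm regulators, Foxh1 among 24 genes of the Nodal pathway, Dkk1 among 51 of the WNT pathway and Hand1 among 22 of cardiac and lateral mesoderm. None of 22 parietal endoderm genes was a member, and 19 of them were in the set highest at 168 h. None of the naive pluripotency, formative epiblast, primitive streak, FGF, BMP, Notch, fibroblast or endothelial lists had a member. A gene highest at 0 h or 168 h could not meet the rule, so the absence of such genes follows from the choice. By position, 6 of the 66 genes (9.09%) were on the X chromosome, against 3.61% of 14914 expressed genes with a position, and 2 of these 6 were the neighbours Rhox6 and Rhox9 (chrX:37826910-37829857 and chrX:37899097-37901770). The 6 also included Gm14843, named above as less secure, and Dcaf12l1, at the edge of the rule.

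The siRNA experiment was independent of the rule and asked how these genes depend on OCT4 at 48 h. The deposited siRNA table held 6275 genes that the authors had classed as responsive to GATA6, and 60 of the 66 genes were among them (not AL731706.2, Gm14843, Gm2007, Gm11007, Gpsm2 or Exosc6). Pou5f1 averaged 957 ± 183 TPM (SD, n = 6) in siCTL and 331 ± 44.4 TPM in siOct4, which differed by −1.52 ± 0.14 on the log2 scale (SE) with an adjusted p of 5.21e-05 in limma. Gata6 mRNA, with cassette and endogenous transcripts counted together, averaged 121 ± 38.6 TPM in siCTL and 85.9 ± 26.4 TPM in siOct4. The log2 difference was −0.50 with adjusted p = 0.326 in limma (0.0503 with replicate number as a block). For endogenous Gata6, read from a part of the transcript that the cassette lacks, the study reports a decrease after Oct4 knockdown. The part of Gata6 in the differences below was not tested. In siCTL cells 41 of the 60 genes were at least 3 times their 0 h mean, and 51 were within 2 times of their level in the 48 h libraries.

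After Oct4 siRNA, 19 of the 60 genes (31.7%) were lower and 5 (8.33%) were higher at an adjusted p under 0.05 and a log2 change beyond 0.5 (limma on log2(TPM + 1)). Over all 6264 genes tested the shares were 1.72% lower and 0.942% higher. Replicate numbers paired the libraries, and with the number as a block the counts were 36 lower (60%) and 7 higher (11.7%), against 6.15% and 2.43% over all genes tested. The median log2 change was −0.80 over the 60 genes and −0.12 over all genes tested, and rescaling each library by the median of its ratios moved these to −0.66 and 0.01. Deviations of consecutive libraries of a group (1 and 2, 3 and 4, 5 and 6) correlated positively in 5 of 6 cases, all but siCTL replicates 3 and 4, and averaging them left 0 calls in limma without the block. At an unadjusted p under 0.05 that fit had 27 of the 60 genes lower and 7 higher, against 5.89% and 1.82% of all genes tested. With the block it called 21 lower and 5 higher, against 2.20% and 1.04%. With likeness of this kind, the 6 numbers may hold fewer than 6 independent units, although the study describes its replicates as independent. The SEs, the counts of pairs and the fits that leave out 1 replicate number take them as 6.

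The set highest at 168 h gave other counts. Of 1272 of its genes tested, 7 were lower and 23 higher, or 53 and 54 with the block, and their median log2 change was −0.09. The same counts were taken over genes already high at 48 h. Among the 189 genes of that set that were at least 10 TPM and 3 times their 0 h mean at 48 h, 3 (1.59%) were lower and 4 (2.12%) higher, or 34 (18.0%) and 5 (2.65%) with the block. Among the 44 transient genes that met the same conditions at 48 h, 14 (31.8%) were lower and 1 (2.27%) was higher, or 28 (63.6%) and 2 (4.55%) with the block. By time of the highest mean, 2 of 22 genes with a 48 h peak were lower, 12 of 27 with a 72 h peak and 5 of 11 with a 96 h peak, which became 10, 17 and 9 with the block. The differences between these groups of genes were not tested.

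Genes that were lower included Hesx1 and Dkk1 of the anterior visceral endoderm list and Foxq1 of the primitive endoderm regulators. Hesx1 ran from 10.56 to 29.6 TPM in siCTL (median 22.8) and from 2.83 to 7.08 TPM in siOct4 (median 4.44), a log2 change of −1.88 ± 0.29 (limma, adjusted p = 0.00239). The 6 siOct4 libraries lay below the 6 siCTL libraries. Dkk1 ran from 53.7 to 119.8 TPM in siCTL (median 71.6) and from 20.8 to 45.3 TPM in siOct4 (median 40.3), a log2 change of −1.09 ± 0.24 (limma, adjusted p = 0.0270). Foxq1 ran from 42.2 to 81.2 TPM in siCTL (median 62.7) and from 25.2 to 39.5 TPM in siOct4 (median 35.8), with a log2 change of −0.84 ± 0.18 (limma, adjusted p = 0.0188). The groups overlapped in neither gene, yet both calls stood in only 1 of 6 fits that left out a replicate number, with the adjusted p up to 0.0880 for Dkk1 and 0.0861 for Foxq1.

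On the log2(TPM + 1) scale the largest decrease was that of Myo7a, from 31.6 to 81.2 TPM in siCTL (median 42.4) to between 5.38 and 15.2 TPM in siOct4 (median 10.9), a log2 change of −2.02 ± 0.27 (limma, adjusted p = 0.00142). Clic5 ran from 5.74 to 21.3 TPM in siCTL (median 11.4) and from 1.42 to 3.79 TPM in siOct4 (median 2.26), a log2 change of −1.86 ± 0.29 (limma, adjusted p = 0.00265). Lrrk1, a leucine-rich repeat kinase, ran from 9.65 to 31.1 TPM in siCTL (median 14.3) and from 2.93 to 4.59 TPM in siOct4 (median 4.14). Slc7a9, the light subunit of an epithelial transporter of cystine and basic amino acids, ran from 5.65 to 10.8 TPM in siCTL (median 6.85) and from 1.67 to 2.62 TPM in siOct4 (median 2.10). The groups did not overlap in any of these 4 genes, and all 4 calls stood whichever replicate number was left out. Each such fit kept the consecutive library of the number left out, so it is a limited check where consecutive libraries resemble each other. The other genes called lower without the block were AA986860, 2810459M11Rik, Fahd2a, Ube2l6, Lgals2, Pdlim4, Rhpn1, Dok2, Dnajc22, Tmem63c, Slc35g1 and Echdc2, with log2 changes from −1.69 to −0.60. Of these 12, only Fahd2a, Rhpn1 and Dok2 were called in all 6 fits that left out a replicate number, and Echdc2 was called in 0 of them, with an adjusted p up to 0.128.

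Of the 17 genes called lower only with the block, 4 (Cyp4f14, Aldh1l1, Rab11fip4 and Marcks) were also called when consecutive libraries were averaged and the block kept, as were 0 of the 2 called higher only with the block, Hand1 and Prss8 (limma, adjusted p = 0.150 and 0.134). Folr1, adjusted p = 0.190 in that fit, ran from 265 to 759 TPM in siCTL (median 382) and from 196 to 376 TPM in siOct4 (median 308), a log2 difference of −0.56 with adjusted p = 0.344 in limma and 0.0486 with the block. In 6 of 6 pairs its siOct4 library was below the siCTL library of the same number, although the groups overlapped. Prkcz, an atypical protein kinase C, ran from 28.6 to 46.5 TPM in siCTL (median 32.7) and from 19.7 to 27.2 TPM in siOct4 (median 23.8), with adjusted p = 0.104 in limma and 0.0408 with the block, or 0.196 with consecutive libraries averaged as well.

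**Figure D3:**
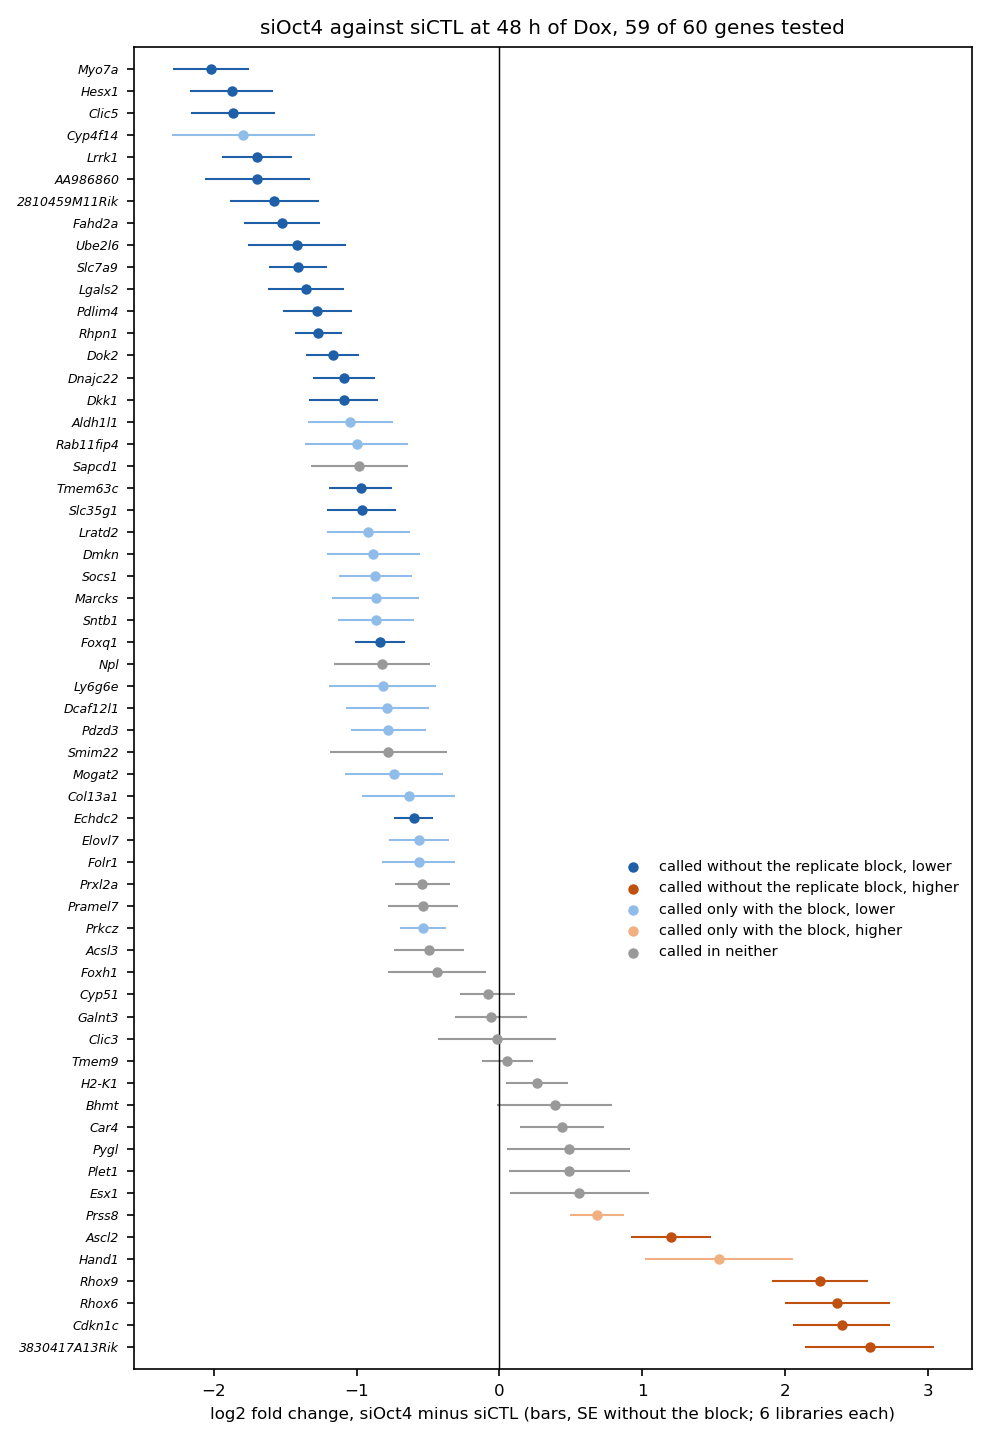
Log2 fold change, siOct4 minus siCTL, of 59 of the 60 genes tested, sorted, with bars for the SE of the fit without the block. Dark blue and dark orange mark the 19 lower and 5 higher calls of that fit, pale colours the calls made only with the block, and grey the 17 genes called in neither.

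Of the 5 genes called higher after Oct4 siRNA, 4 belonged to the trophoblast or imprinted lists. Rhox6 ran from 12.2 to 63.1 TPM in siCTL (median 54.9) and from 124 to 342 TPM in siOct4 (median 219.7), a log2 change of 2.36 ± 0.37 (limma, adjusted p = 0.00240). Rhox9 ran from 16.9 to 63.8 TPM in siCTL (median 51.9) and from 119 to 347 TPM in siOct4 (median 203), a log2 change of 2.24 ± 0.34 (limma, adjusted p = 0.00192). In both genes every siOct4 library exceeded every siCTL library, and the lowest siOct4 library also exceeded every library of the time course, where the maxima were 90.3 and 110.4 TPM, although the tables came from separate experiments and were not tested against each other.

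Cdkn1c ran from 7.54 to 16.5 TPM in siCTL (median 11.9) and from 38.8 to 152 TPM in siOct4 (median 51.4), a log2 change of 2.40 ± 0.34 (limma, adjusted p = 0.00169). Ascl2 ran from 2.06 to 5.79 TPM in siCTL (median 3.26) and from 5.63 to 15.3 TPM in siOct4 (median 7.27), a log2 change of 1.20 ± 0.28 (limma, adjusted p = 0.0343), and its groups overlapped slightly. The call for Ascl2 stood in 1 of 6 fits that left out a replicate number, with an adjusted p up to 0.136. The largest change on the log2(TPM + 1) scale was that of 3830417A13Rik, a gene without a described role, from between 3.72 and 15.9 TPM in siCTL (median 11.0) to between 33.8 and 149 TPM in siOct4 (median 42.1), a log2 change of 2.59 ± 0.45 (limma, adjusted p = 0.00491).

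Hand1 was called with the block alone. It ran from 1.27 to 3.91 TPM in siCTL (median 3.57) and from 2.80 to 38.1 TPM in siOct4 (median 6.70), with a log2 difference of 1.54 ± 0.52 and adjusted p = 0.164 in limma (0.0233 with the block). The siOct4 libraries of Hand1 were uneven, with 2 far above the other 4. Esx1 overlapped almost fully, from 2.16 to 12.2 TPM in siCTL (median 9.36) and from 3.41 to 24.3 TPM in siOct4 (median 10.63), with adjusted p = 0.704 in limma and 0.0699 with the block, though siOct4 was higher in 6 of 6 pairs. Prss8, a membrane-anchored serine protease, was the other gene called higher only with the block, at a log2 difference of 0.68 and adjusted p = 0.0196 (0.0751 without it).

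**Figure D4:**
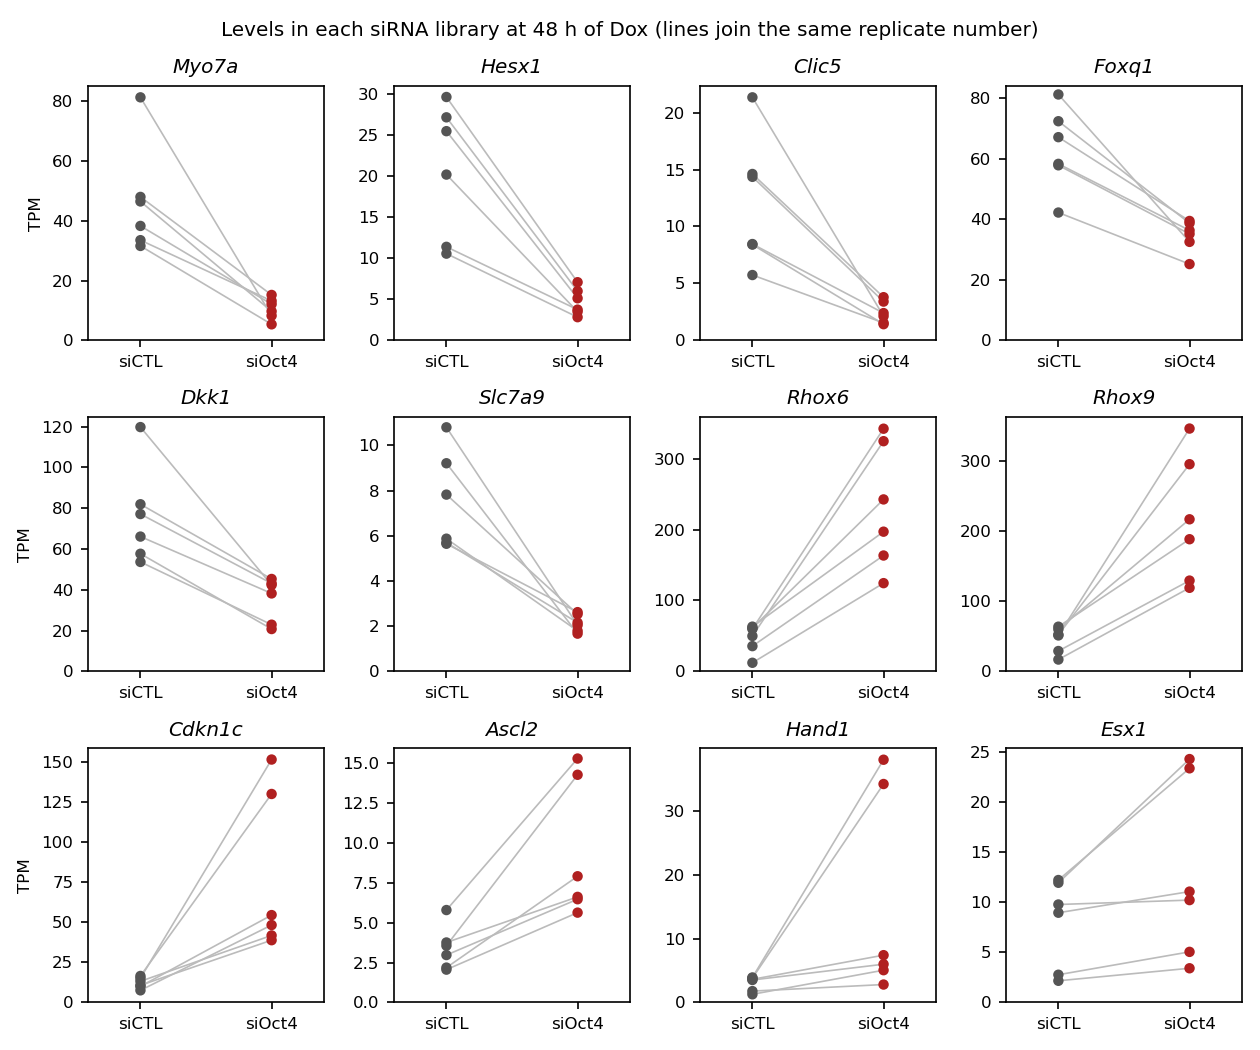
TPM of 12 genes in the 6 siCTL (grey) and 6 siOct4 (red) libraries, with grey lines joining the same replicate number and each axis starting at 0. The first 6 genes are lower and Rhox6, Rhox9, Cdkn1c and Ascl2 higher after Oct4 siRNA, while Hand1 has 2 high siOct4 libraries and Esx1 overlaps.

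The lists that these members belong to were also counted whole. Of 17 trophoblast genes tested, 0 were lower and 9 were higher in limma (Krt8, Krt18, Krt19, Gata2, Ascl2, Plac1, Rhox6, Rhox9 and Sct), or 0 and 13 with the block, at a median log2 change of 1.58. At an unadjusted p under 0.05, 0 were lower and 14 higher, or 1 and 15 with the block, where the shares over all genes tested were 9.90% lower and 3.94% higher, or 17.7% and 6.59%. Their summed level ran from 290 to 363 TPM in siCTL and from 802 to 1940 TPM in siOct4. Several of these, such as the keratins Krt8 and Krt18, are also abundant in primitive endoderm and had their highest group mean at 168 h or in XEN cells. Of 12 anterior visceral endoderm genes, 2 were lower (Dkk1 and Hesx1) and 1, Cyp26a1, was higher. Of 28 visceral endoderm genes, 4 were lower (Amn, Cubn, Nostrin and Clic5) and 1 was higher, or 11 and 1 with the block. Of 17 primitive endoderm regulators, Foxq1 alone was lower, or 8 genes with the block, and of 19 imprinted genes 0 were lower and 4 were higher in limma, or 0 and 7 with the block, with 0 lower and 7 higher at an unadjusted p under 0.05 in both fits. Of 11 fibroblast markers 0 were called by limma with or without the block, 0 had an unadjusted p under 0.05, and their summed levels overlapped, with summed levels of 109 to 545 TPM in siCTL and 113 to 703 TPM in siOct4.

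Genes called in neither fit numbered 17. Foxh1 ran from 12.4 to 47.7 TPM in siCTL (median 35.0) and from 10.8 to 36.1 TPM in siOct4 (median 25.4), with a log2 difference of −0.44 ± 0.34 and adjusted p = 0.649 in limma. Car4 ran from 84.2 to 220.4 TPM in siCTL (median 168) and from 129 to 399 TPM in siOct4 (median 187), with adjusted p = 0.580. Npl ran from 139.8 to 315 TPM in siCTL (median 261) and from 70.3 to 258 TPM in siOct4 (median 119.9), with adjusted p = 0.280, or 0.0832 with the block. The groups overlapped in all 3 genes, although siOct4 was below the siCTL library of the same number in 6 of 6 pairs for Foxh1 (adjusted p = 0.108 with the block) and for Npl.

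Promoter sequence was read for the 43 members that matched the RefSeq table (62 promoters, GRCm38.p6, 250 bases upstream of each start). The GATA motif, searched as AGATAA and TGATAA on both strands, occurred in 7 of 62 promoters (11.3%), against 16.6% of 32851 promoters. The octamer ATTTGCAT, searched on both strands, occurred in 1 of 62 (1.61%), against 1.60%. Slc7a9 was the only member with 2 GATA matches, which started 205 and 166 bases upstream. It is printed with Tmem63c (match 212 bases upstream) and Lgals2 (match 90 bases upstream), the other genes with a match that were lower after Oct4 siRNA without the block. Capitals mark the matches, which describe letters and not bound sites.
Slc7a9 (chr7:35448842-35449091, plus strand): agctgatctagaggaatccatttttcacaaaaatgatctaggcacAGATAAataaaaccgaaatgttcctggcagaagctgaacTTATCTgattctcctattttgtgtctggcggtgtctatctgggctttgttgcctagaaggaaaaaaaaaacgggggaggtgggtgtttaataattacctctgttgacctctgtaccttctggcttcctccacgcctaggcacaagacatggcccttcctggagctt
Tmem63c (chr12:87021090-87021339, plus strand): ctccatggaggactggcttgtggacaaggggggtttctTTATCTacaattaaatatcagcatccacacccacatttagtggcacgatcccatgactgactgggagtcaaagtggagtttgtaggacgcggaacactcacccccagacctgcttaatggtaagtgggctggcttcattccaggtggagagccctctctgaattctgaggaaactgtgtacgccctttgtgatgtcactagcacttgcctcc
Lgals2 (chr15:78855530-78855779, minus strand): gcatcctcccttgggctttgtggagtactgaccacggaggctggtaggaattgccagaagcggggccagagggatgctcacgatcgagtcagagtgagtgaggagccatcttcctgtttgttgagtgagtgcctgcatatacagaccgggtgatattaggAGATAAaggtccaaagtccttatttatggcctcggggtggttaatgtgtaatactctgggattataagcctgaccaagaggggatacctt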

How the data were processed

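The authors made stranded poly(A) libraries, trimmed reads with cutadapt, aligned them to mm10 with STAR, counted with RSEM and deposited TPM values. The study states that outliers in a principal component analysis were omitted, without saying whether these were libraries or genes. Tool versions and the annotation are not given in the sources used here, and the depth behind the TPM values is unknown. The induction table (23 libraries) sums to between 999764 and 999881 TPM per library. The siRNA table (12 libraries) holds 6275 genes and sums to between 274527 and 355895 TPM. It also holds the authors' group means and classes, which were not used. Where a symbol occurred more than once (60 symbols), its row of highest average level was used.

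The 66 genes and all gene lists were chosen with earlier results of these data known. Group means, the rule and its alternatives were computed with pandas 2.3.3 in Python 3.11.15. The siOct4 and siCTL libraries were compared by limma 3.58.1 (R 4.3.3; trend, robust) on log2(TPM + 1), which understates changes of low genes, over all genes averaging 1 TPM or more in either group, with Benjamini-Hochberg adjustment. The fit was also run on simulated data with libraries drawn independently, so that run says nothing about likeness between libraries. Calls needed an adjusted p under 0.05 and an absolute log2 change above 0.5. Deviations from the group means of same-numbered siCTL and siOct4 libraries correlated at 0.236 to 0.707 in all 6 numbers (mean 0.328, against −0.0640 for other numbers), so the number was taken to pair them and a fit with it as a block is given where calls change. Shared sequence was the share of 50-base stretches of GENCODE vM21 transcripts found in another gene.

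Genes are named if they are in a list, among the 15 largest ratios, the 10 most abundant, the 3 most abundant per peak time, the 10 largest calls each way, or nearest the threshold. Exosc6, Aldh1l1, Rab11fip4, Marcks, Ly6g6e, Pdzd3, Prss8, Prkcz, Galnt3, Gpsm2 and the remaining called genes outside these were named after their values were seen. The values of 1 of the 66 genes are not reported here, though it is in the counts.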

Additional observations from a re-analysis of the deposited data

Results flagged for a closer look

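Among the 90 sets of 6 siRNA libraries screened, 6 held 1 library far from the others by Dixon's test, where chance gives about 4.5. On the log2(TPM + 1) scale, 5 of the 6 concerned siCTL replicate 4. It was highest for Gata6 (7.64, against 6.55 to 6.82 in the other siCTL libraries), AA986860 (6.15, against 4.44 to 5.03), 2810459M11Rik (3.54, against 2.09 to 2.63) and Dok2 (6.90, against 5.77 to 6.19), and lowest for Rhox6 (3.72, against 5.20 to 6.00). The other was Fahd2a in siOct4 replicate 4 (1.86, against 2.64 to 2.99).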

How the results depend on the processing

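The number of genes taken by the rule was 158 at a minimum ratio of 2, 31 at a ratio of 4 and 40 at a minimum peak of 20 TPM. It ranged from 69 to 81 when a replicate number was left out, and stayed within 1.5 times of 66 in the other alternatives. The time course was given no test, paired or not, because it chose the genes. For siOct4 against siCTL, the replicate block gave 36 lower calls among the 60 genes, an adjusted p under 0.01 gave 8, and leaving out a replicate number gave 9 to 20 lower and 4 to 6 higher, with every such fit but that without replicate 3 at 12 or fewer. Alternatives chosen after seeing the data gave 32 lower and 9 higher (gene length trend removed with the block) and 0 and 0 (consecutive libraries averaged, limma; 27 and 7 at an unadjusted p under 0.05). Of the genes highest at 168 h, 7 were lower and 23 higher. The lower calls became 53 with the block, 3 at an adjusted p under 0.01, 3 to 22 without a replicate number, 12 with the length trend removed, 43 with that and the block, 0 with consecutive libraries averaged (limma) and 15 with that and the block. The higher calls became 54 with the block, 55 after rescaling, 10 at an adjusted p under 0.01, 10 to 20 without a replicate number, 64 with the length trend removed, 109 with that and the block, and 0 with consecutive libraries averaged. No called gene changed direction. The cause of these shifts was not tested. TPM carry no depth, so counting error could not be set beside the spread of low genes.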
